A study of Mus musculus with 12 samples.

Results

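The genes described here were raised by lipopolysaccharide (LPS) in wild-type bone-marrow-derived dendritic cells (BMDCs) and stayed near the wild-type baseline in unstimulated BMDCs labelled Pde5 knockout. They were chosen on CPM, the count of a gene divided by the total of its library and multiplied by 1000000. CPM is not corrected for gene length, so levels are set side by side between groups and not between genes. A gene was taken where both LPS-treated WT libraries had at least 2 CPM and the lower of them was at least 1.5 times the higher unstimulated WT library. In addition, its mean over the unstimulated knockout-labelled libraries had to be at most 25% above its unstimulated WT mean. The first 2 conditions held for 840 of 32190 gene symbols, and 21 of these 840 (2.5%) also met the last one. The other 819 lay above that limit. Of the 21, 19 are protein coding, they lie on 12 chromosomes, 9 overlap another gene and 0 share all their counts with another symbol. The members were not silent in unstimulated knockout-labelled cells, where their means ran between 0.156 and 391 CPM. The description that the values bear out is that they were not raised beyond that 25% there.

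The study compared dendritic cells (DCs) from growing tumors and BMDCs with and without a deletion of Pde5, in 12 mouse RNA-seq libraries, 2 in each of 6 groups. The BMDC groups were Pde5-/- cells with LPS, WT cells with LPS, Pde5-/- cells without LPS and WT cells without LPS, where LPS was given at 200 ng/ml for 12 h. The tumoral groups were late (day 14) and early (day 7) DCs, both of WT genotype and sorted from Zbtb46-Tdtomato mice bearing MC38 tumors, a mouse colon cancer line. Zbtb46 is a transcription factor of classical DCs, and the reporter marks cells that express it. Labels call all cells only immune cells, give a time of 9 days for BMDCs, and carry an extraction text about retinas. Nothing states that replicates came from separate mice or cultures, so the spread behind each p-value, that of the libraries at hand, may be technical.

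The counts of Pde5a, the gene that encodes the cGMP-degrading phosphodiesterase 5, did not separate the genotype labels. There were 22 and 43 counts in the libraries labelled Pde5-/- with LPS and 52 and 20 in WT libraries with LPS. Unstimulated libraries had 47 and 61 counts under the knockout label and 55 and 37 under the WT label. The groups are therefore called KO-labelled and WT throughout. The core DC list held 14 genes, of which 13 were among the gene symbols counted. All 13, among them Flt3, Zbtb46 and Itgax, were detected in all 12 libraries. So were all 20 monocyte and macrophage markers, each at 10 counts or more. Their sums ran between 2693 and 12499 CPM in BMDC libraries and between 13153.5 and 22821 CPM in tumoral libraries. The lymphocyte marker Cd3e had 5 to 20 counts in the BMDC libraries. The 16 neutrophil markers summed to 93.1 to 282 CPM there, with 11 to 14 of the 16 at 10 counts or more in each library. Library totals ran between 16122941 and 19684338 counts in BMDC and between 14153700 and 19293261 in tumoral libraries. A count of 3, the limit that a count of 0 allows, was then worth 0.152 to 0.212 CPM.

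LPS, a component of the outer membrane of Gram-negative bacteria, is sensed by Toll-like receptor 4 and drives DC maturation through NF-kB, MAP kinases and secreted type I interferon. Maturing DCs change their antigen-processing machinery, costimulatory surface proteins and metabolism. Phosphodiesterase 5 lowers cyclic GMP, a second messenger that acts through protein kinase G.

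Sequence around the start sites was read for motifs of these pathways, in windows of 250 bases before and 50 bases after each start from RefSeq (GRCm38.p6, the assembly of the mm10 build). A window was held for 18 of the 21 members, 24 in all, and 13 members had none of the 3 motifs searched on both strands. The motifs were the interferon-stimulated response element (ISRE), read as 2 copies of GAAA spaced by 2 bases, the NF-kB site, read as GGG and TTCC spaced by 3 bases, and the interferon-gamma-activated sequence (GAS), bound by STAT factors and read as TTC and GAA spaced by 3 bases. None of these letter patterns holds another, though matches of different motifs can share bases. An ISRE match stood in 1 of 24 member windows (4.17%), in 86 of 826 windows of the other LPS-induced genes (10.4%) and in 3.44% of all 32851 windows. The NF-kB motif stood in 8.33%, 8.23% and 5.56% of the same sets, and the GAS motif in 8.33%, 8.35% and 8.3%. These matches are descriptions of letters and not binding sites. The windows of Scube3 (chr17:28142059-28142358, plus strand; ISRE at base -188), Dusp5 (chr19:53528895-53529194, plus strand; NF-kB motif at base -90) and Csn2 (chr5:87699376-87699675, minus strand; GAS motif at base -93) are shown as 1 example of each motif. They were picked after the values were seen, and each is printed 5′ to 3′ along the gene with the motif in capitals. The start site of the Scube3 window lies inside the gene, whose position given below begins at base 28142100. The ISRE match lies inside the gene as well. Csn2 is beta-casein, a milk protein whose promoter is a textbook target of STAT5.
Scube3: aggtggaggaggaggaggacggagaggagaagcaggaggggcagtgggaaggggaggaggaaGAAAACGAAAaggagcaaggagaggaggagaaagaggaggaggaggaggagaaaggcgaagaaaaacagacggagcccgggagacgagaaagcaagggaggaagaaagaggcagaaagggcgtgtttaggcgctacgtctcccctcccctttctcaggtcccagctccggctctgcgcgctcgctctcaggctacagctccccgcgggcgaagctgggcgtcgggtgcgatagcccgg
Dusp5: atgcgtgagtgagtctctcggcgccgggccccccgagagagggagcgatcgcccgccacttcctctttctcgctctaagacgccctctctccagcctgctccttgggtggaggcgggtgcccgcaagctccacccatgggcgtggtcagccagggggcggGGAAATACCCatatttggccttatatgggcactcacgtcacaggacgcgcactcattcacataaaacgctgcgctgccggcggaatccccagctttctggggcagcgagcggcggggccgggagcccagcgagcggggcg
Csn2: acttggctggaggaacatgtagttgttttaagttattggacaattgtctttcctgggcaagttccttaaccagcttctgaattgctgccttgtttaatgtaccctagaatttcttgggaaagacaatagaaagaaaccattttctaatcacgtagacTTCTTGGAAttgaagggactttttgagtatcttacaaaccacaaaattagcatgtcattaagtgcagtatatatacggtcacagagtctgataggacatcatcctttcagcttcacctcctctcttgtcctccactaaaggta
The capitals in Dusp5 are the reverse complement of the searched letters. The remaining matches were an NF-kB motif in 1 of 4 windows of Apc2 and a GAS motif in Gm8773.

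Most LPS-induced genes were already raised in unstimulated KO-labelled cells, and the members were the low end of that distribution. The ratio of the unstimulated KO-labelled mean to the unstimulated WT mean had a median of 1.15 in the members (0.223 to 1.24) and of 2.23 in the other LPS-induced genes (1.254 to 793). On the scale between the unstimulated WT mean (0%) and the LPS-treated WT mean (100%), the median place of the unstimulated KO-labelled mean was 8.20% for members and 73.4% for the others. In every member the unstimulated KO-labelled mean lay below the lowest LPS-treated WT library, as it did in 541 of the other 819. These numbers restate what the rule used and were not tested.

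Within the members the ratio was not uniform. It was at or below 1.0 in 6 members (Tpbg, Spic, Scube3, Icos, Csn2 and Cfap58), at most 1.1 in 10 and at most 1.2 in 17. Compared library by library, unstimulated KO-labelled values were higher than both WT libraries in 7 members (background 25.5% of 13072 tested genes), lower than both in 2 (background 40.7%) and overlapped in 12. The members just inside the limit were Dusp5 at 1.24 and Gm16685 at 1.22, and the LPS-induced genes just outside it were Asb13 at 1.254 and Rnf34 at 1.26. On the LPS condition, Tns2 and Amn, both at 1.52, were just inside and Apobec3, at 1.497 just outside, had 461 CPM in the lower LPS-treated WT library against 308 in the higher unstimulated one. On the CPM condition, Csn2 and Amn were just inside with 2.07 CPM in their lower LPS-treated WT library, and Tmem82 and Ehf just outside with 1.79 and 1.85 CPM.

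The LPS response of the members in WT cells was modest. Their ratio of LPS-treated to unstimulated WT means had a median of 2.11 (1.64 to 4.30), against 2.54 in the other LPS-induced genes. Of 234 LPS-induced genes with a ratio of 1.5 to 2, 10 were members (4.27%), and of 178 with a ratio of at least 5, 0 were members. This ratio and the knockout ratio limited by the rule share the unstimulated WT mean as divisor, which bears on that trend. Members were also more frequent at low counts, with 6 of 101 LPS-induced genes at 2 to 5 CPM (5.94%), 4 of 77 at 5 to 10 CPM (5.19%), 7 of 214 at 10 to 50 CPM (3.27%) and 4 of 448 at 50 CPM or more (0.893%). Membership also moved with the scaling: with TMM-scaled library sizes 1173 genes met the LPS conditions and 34 the whole rule, of which 11 were among the 21. That scaling shifted the median log2 ratio of KO-labelled to WT unstimulated cells over all tested genes by 0.10, and Dusp5, Gm16685, Tns2, Gm8773, Psmb10, Zfpm1, Kirrel, Psme2b, Cacnb4 and Cryaa then lay above the limit.

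**Figure D1:**
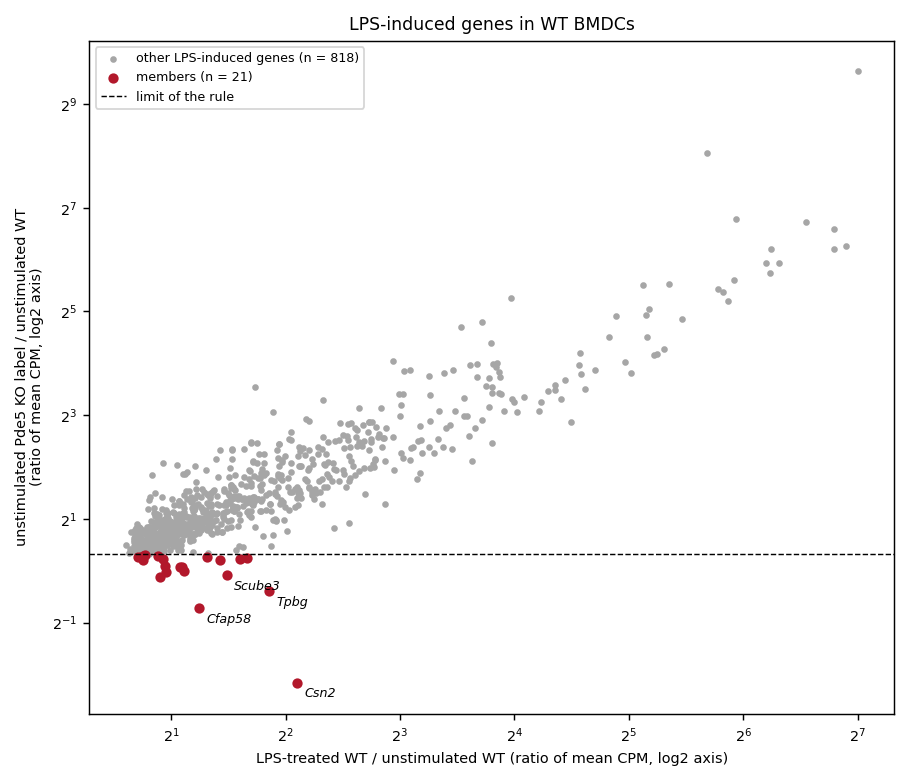
LPS-induced genes by their LPS response in WT BMDCs (x axis, LPS-treated over unstimulated mean CPM, log2 axis) and by their level in unstimulated KO-labelled BMDCs (y axis, KO-labelled over WT mean CPM, log2 axis). Red points are the 21 members, grey points 818 others, and 1 gene with an unstimulated WT mean of 0 is not drawn. The members lie under the dashed limit of the rule and at LPS ratios of at most 4.30, while the grey points climb along both axes. Both axes divide by the same unstimulated WT mean and show values that the rule used, which bears on this joint climb.

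The LPS-treated KO-labelled libraries took no part in the choice of members, but the unstimulated ones set against them did. Most members were higher with LPS under the knockout label too. In 19 of 21 members both LPS-treated KO-labelled libraries lay above both unstimulated KO-labelled libraries (background 19.2% of tested genes), in 0 below (background 36.9%), and in 2 they overlapped (Amn and 1810064F22Rik). The median log2 fold change was 0.77 over the members, 0.34 over the other LPS-induced genes and -0.0155 over all 13072 genes tested. No gene passed an adjusted p of 0.05 in edgeR's quasi-likelihood test (percent called 0 in either direction). At an unadjusted p under 0.05, 18 members were higher and 0 lower, against 9.75% and 11.7% of all tested genes. Among the 819 other LPS-induced genes, 306 were higher and 18 lower at that p. The smallest adjusted p over all genes was that of a member, Cacnb4, at 0.0502. DESeq2 called 10 members higher (Tpbg, Spic, Scube3, Ido1, Icos, Eml6, Dusp5, Cryaa, Cfap58 and Cacnb4), against 3.12% of its 11298 genes, and 0 lower, against 3.9%. Unstimulated KO-labelled libraries were chosen for low values by the rule, so part of this direction is set by the choice of members. The other 819 LPS-induced genes lay above the rule's limit in those same libraries. Their median ratio to unstimulated WT was 2.23, against 1.15 in the members. The gap between members and these others is therefore also set in part by the rule. The edgeR count of 0 became 5 without unstimulated WT replicate 1 (0.192% of genes called higher), 5 without unstimulated WT replicate 2 (0.193%) and 6 without unstimulated KO-labelled replicate 1 (1.62%). In the last of these fits the lone unstimulated KO-labelled library is assumed to vary like the other groups.

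Between the genotype labels, with LPS on both sides, no member was called. The edgeR test called 0 of 13072 genes (percent called 0), with a smallest adjusted p of 0.166. At an unadjusted p under 0.05, 1 member was higher in KO-labelled cells (Cacnb4) and 7 were lower, against 5.33% and 4.84% of all genes. Among the 819 other LPS-induced genes, 62 were higher and 31 lower at that p. DESeq2 called 0 members, against 0.978% of 11551 genes higher and 0.32% lower. Library by library, 10 members were lower in LPS-treated KO-labelled than in LPS-treated WT cells (background 20.9%), 4 were higher (background 25.2%) and 7 overlapped. The median log2 fold change was -0.23 over the members, -0.00618 over the other LPS-induced genes and -0.00776 over all tested genes. LPS-treated WT libraries had been chosen for high values by the rule, which bears on the direction of these differences.

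**Figure D2:**
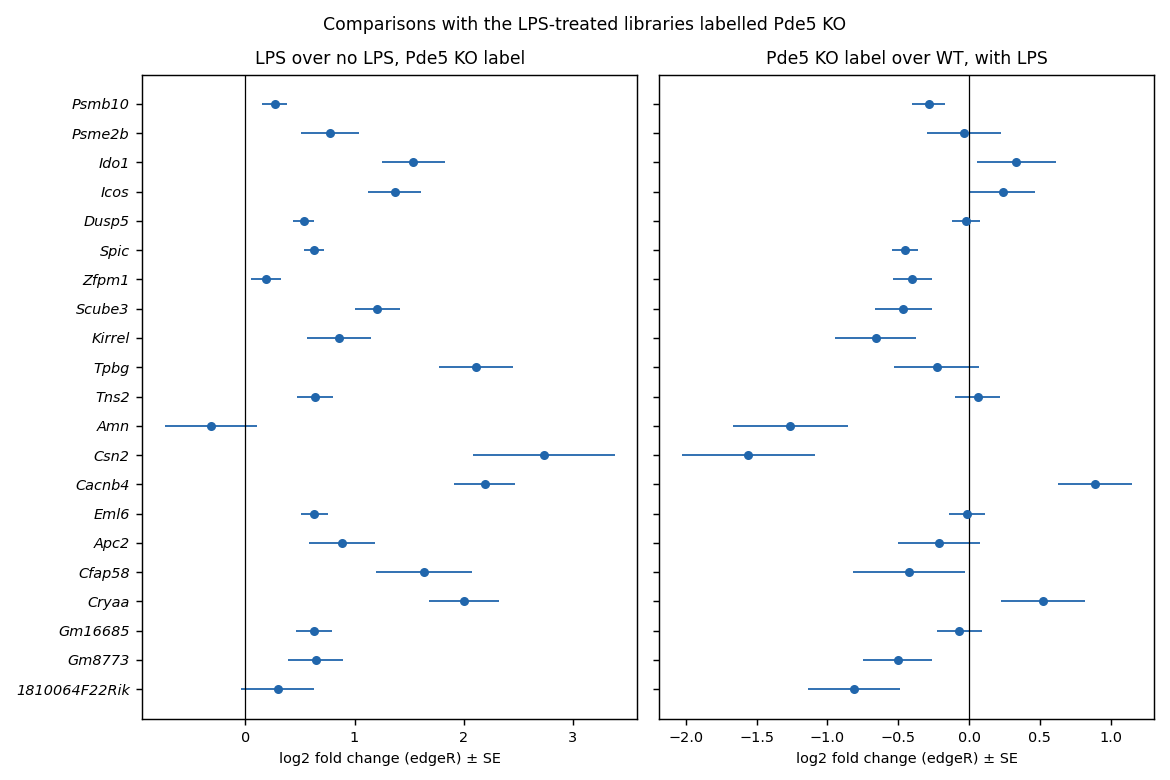
Log2 fold change (edgeR) with its SE for each member, left for LPS-treated over unstimulated KO-labelled BMDCs and right for LPS-treated KO-labelled over LPS-treated WT BMDCs (n = 2 libraries a group). On the left 20 of 21 points are above 0, from 0.19 in Zfpm1 to 2.74 in Csn2, with Amn at -0.32. On the right 16 of 21 are below 0, down to -1.56 in Csn2, and Cacnb4 has the highest value at 0.89.

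Antigen processing was represented by 2 members. Psmb10 (chr8:105935728-105938392) encodes a catalytic subunit of the immunoproteasome, the proteasome form that cuts peptides for MHC class I. It had 211 and 249.6 CPM in LPS-treated KO-labelled cells, 284 and 269 CPM in LPS-treated WT cells, 211 and 192 CPM in unstimulated KO-labelled cells and 163 and 174 CPM in unstimulated WT cells. The unstimulated KO-labelled libraries thus stood between the WT states, above both unstimulated WT libraries and below both LPS-treated WT libraries. With LPS, KO-labelled cells were below both WT libraries (log2 fold change -0.29, SE 0.115, adjusted p = 0.463). Psme2b (chr11:48945345-48946410) had 12.2 and 8.16 CPM in LPS-treated KO-labelled cells, 12.1 and 8.48 CPM in LPS-treated WT cells, 7.12 and 5.44 CPM in unstimulated KO-labelled cells and 5.27 and 5.52 CPM in unstimulated WT cells. It is a near copy of Psme2, a subunit of the proteasome activator PA28, and overlaps 9930111J21Rik1, so its reads are uncertain. Psme1 and Psme2 were LPS-induced as well, with unstimulated KO-labelled over WT ratios of 1.27 and 1.34, just above the limit that Psmb10 met at 1.196. The other immunoproteasome subunits Psmb8 and Psmb9 did not reach the LPS condition, with LPS-treated over unstimulated WT ratios of 1.47 and 1.33.

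Ido1 and Icos act at the interface with T cells. Ido1 (chr8:24584133-24596952) encodes indoleamine 2,3-dioxygenase, which starts the breakdown of tryptophan to kynurenines. It had 62.1 and 50.7 CPM in LPS-treated KO-labelled cells and 45.0 and 43.0 CPM in LPS-treated WT cells. Without LPS the values were 19.0 and 21.9 CPM in KO-labelled cells and 27.2 and 13.6 CPM in WT cells, and the ratio of their means was 1.00. LPS-treated KO-labelled cells lay above their unstimulated counterpart (log2 fold change 1.54, SE 0.288, adjusted p = 0.0750) and above both LPS-treated WT libraries (log2 fold change 0.33, SE 0.278, adjusted p = 0.710). Its neighbour in function Ido2, named after its values were seen, did not meet the LPS condition and had means of 99.5 ± 15.7 CPM in LPS-treated KO-labelled, 68.8 ± 7.27 CPM in LPS-treated WT, 39.7 ± 5.24 CPM in unstimulated KO-labelled and 36.8 ± 11.1 CPM in unstimulated WT cells (SD, n = 2 each).

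Icos (chr1:60960773-61000322) encodes a costimulatory receptor known from activated T cells. Its values were 13.5 and 10.2 CPM in LPS-treated KO-labelled cells, 9.92 and 9.87 CPM in LPS-treated WT cells, 5.50 and 4.17 CPM in unstimulated KO-labelled cells and 6.04 and 4.53 CPM in unstimulated WT cells. Both LPS states lay above both unstimulated states with no overlap (log2 fold change 1.37, SE 0.241, adjusted p = 0.0656, LPS against no LPS under the knockout label). The summed level of 20 lymphocyte and NK markers was 33.1 to 60.2 CPM in the BMDC libraries and was highest in the LPS-treated KO-labelled ones, at 60.2 and 51.7 CPM against 33.1 and 37.6 CPM in LPS-treated WT ones. The list holds Cd8a and Gzmb, themselves LPS-induced by the rule, so its sum is not a measure of lymphocytes alone. Their means were 7.45 and 7.11 CPM in LPS-treated KO-labelled cells and 7.64 and 3.23 CPM in LPS-treated WT cells. Cd3e had 12 and 17 counts in LPS-treated and 16 and 20 in unstimulated KO-labelled libraries. In WT libraries it had 10 and 5 counts with LPS and 14 and 7 without. The part of lymphocytes in the Icos values of BMDCs was not tested. Icosl, the ligand of this receptor, was not LPS-induced and had 124.7 ± 21.4 CPM in LPS-treated KO-labelled, 99.8 ± 8.65 CPM in LPS-treated WT, 134.5 ± 12.4 CPM in unstimulated KO-labelled and 226 ± 13.5 CPM in unstimulated WT cells (SD, n = 2 each).

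Regulators of signalling or transcription were Dusp5, Spic and Zfpm1. Dusp5 (chr19:53529145-53541809), whose window with an NF-kB motif is printed above, encodes a nuclear phosphatase that inactivates ERK. It had 536 and 538 CPM in LPS-treated KO-labelled cells, 516 and 559 CPM in LPS-treated WT cells, 373 and 409 CPM in unstimulated KO-labelled cells and 318 and 313 CPM in unstimulated WT cells. With LPS the labels overlapped (log2 fold change -0.02, SE 0.0975, adjusted p = 0.952), and LPS-treated KO-labelled cells lay above unstimulated ones (log2 fold change 0.53, SE 0.0978, adjusted p = 0.0678). Among 8 LPS-induced genes of the list of SOCS and DUSP signalling brakes it was the member, while Socs3 at 4.29, Dusp14 at 5.95 and Socs1 at 1.83 exceeded the unstimulated KO-labelled over WT limit.

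Spic (chr10:88675269-88683023) encodes an ETS-family transcription factor required for iron-recycling macrophages of the spleen. Its values were 106 and 94.4 CPM in LPS-treated KO-labelled cells, 131 and 138 CPM in LPS-treated WT cells, 66.1 and 70.1 CPM in unstimulated KO-labelled cells and 70.7 and 67.5 CPM in unstimulated WT cells. Unstimulated libraries overlapped between labels, and the LPS-treated KO-labelled libraries lay between them and the LPS-treated WT libraries. It had the smallest unadjusted p of the members between labels under LPS (log2 fold change -0.45, SE 0.0910, adjusted p = 0.205) and an adjusted p of 0.0520 for LPS against no LPS under the knockout label (log2 fold change 0.63, SE 0.0918). The summed level of 20 monocyte and macrophage markers, which hold Spic, was 2693 and 5341 CPM in LPS-treated KO-labelled libraries, 8874 and 5615 CPM in LPS-treated WT, 7039 and 8081 CPM in unstimulated KO-labelled and 12499 and 8951 CPM in unstimulated WT libraries. That sum was lower in LPS-treated KO-labelled than in LPS-treated WT cells, as Spic was. With LPS against no LPS, however, the sum was lower under both labels while Spic was higher. Within each LPS-treated group the library with the lower sum had the higher Spic value. Within each unstimulated group it had the lower Spic value. The part of monocytes and macrophages in the Spic values was not tested. C1qa and Fcgr1, macrophage markers in the same list that LPS raised in WT cells, had unstimulated KO-labelled over WT ratios of 8.83 and 5.27, against 0.985 for Spic.

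Zfpm1 (chr8:122281856-122337862), a cofactor of GATA transcription factors that overlaps Gm39269, had 15.5 and 16.1 CPM in LPS-treated KO-labelled cells, 18.9 and 22.2 CPM in LPS-treated WT cells, 14.1 and 15.1 CPM in unstimulated KO-labelled cells and 12.4 and 12.2 CPM in unstimulated WT cells. The KO-labelled libraries of both states stood close together and below both LPS-treated WT libraries. The difference between KO-labelled states was small (log2 fold change 0.19, SE 0.137, adjusted p = 0.453), and that between labels under LPS did not pass the test (log2 fold change -0.40, SE 0.136, adjusted p = 0.396).

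**Figure D3:**
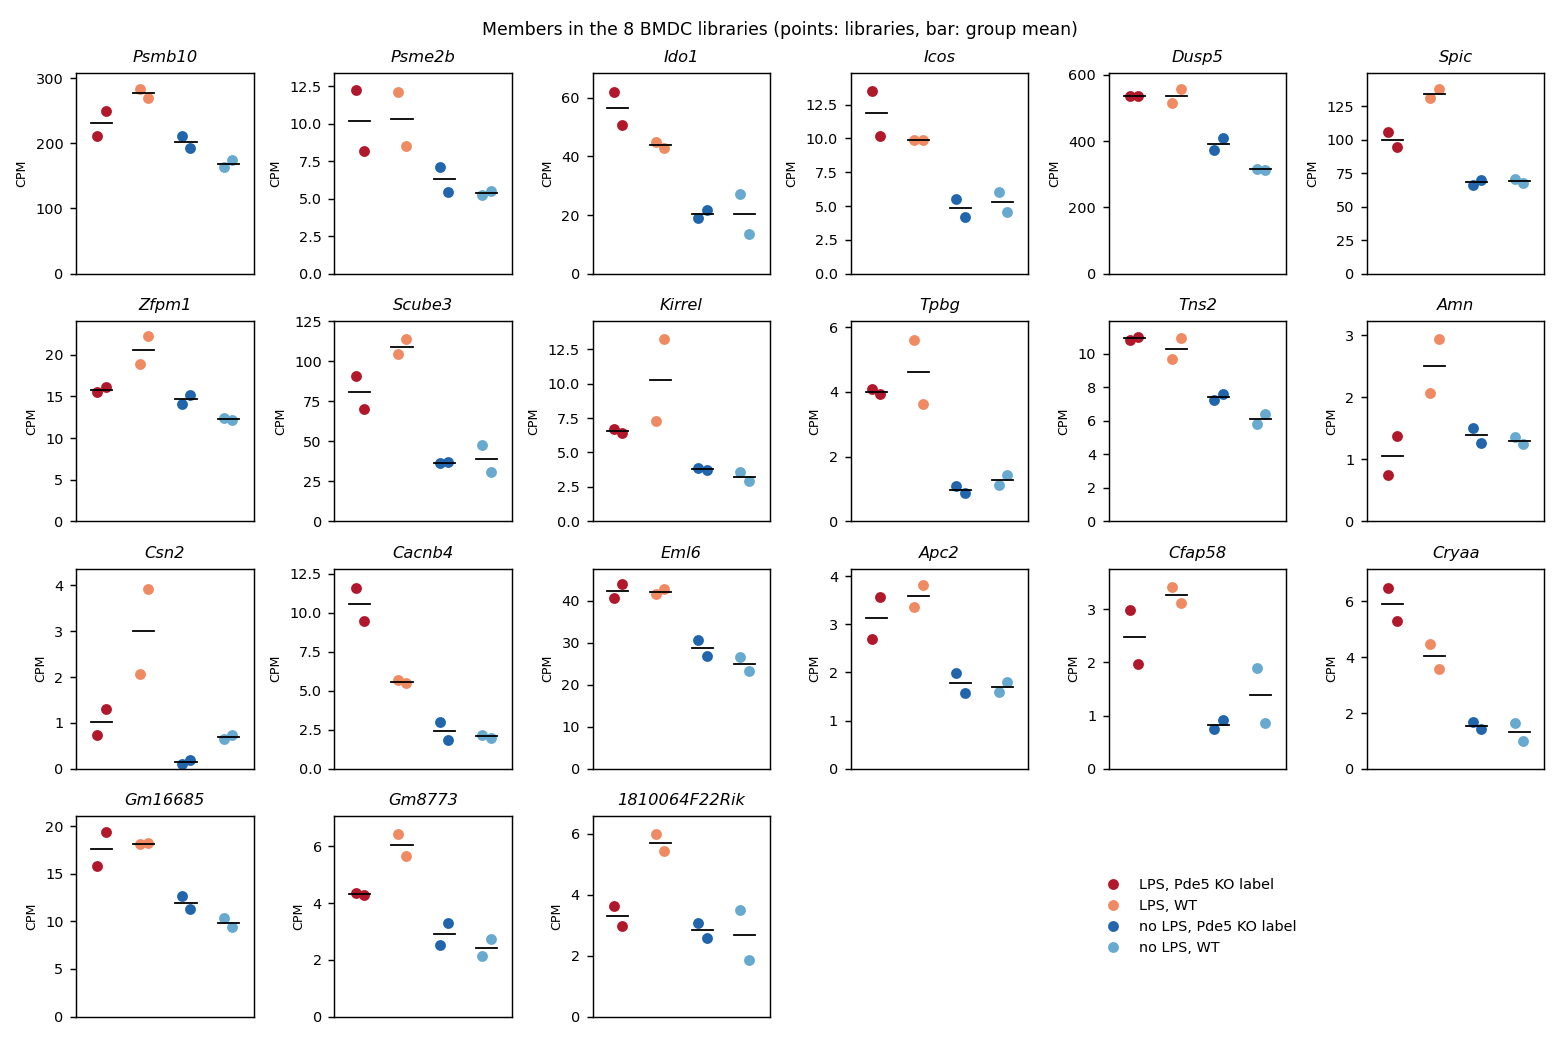
CPM of the 21 members in the 8 BMDC libraries, 1 panel a gene with its own axis from 0; points are libraries and bars are group means (n = 2). From left to right stand LPS-treated KO-labelled, LPS-treated WT, unstimulated KO-labelled and unstimulated WT cells. Most panels show both LPS-treated groups above both unstimulated ones, while in Amn the LPS-treated WT libraries alone are high.

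Secreted, surface and adhesion proteins were encoded by 6 members. Scube3 (chr17:28142100-28174851), a secreted and surface-bound glycoprotein with EGF-like and CUB domains and the single member with an ISRE match, had 90.8 and 70.3 CPM in LPS-treated KO-labelled cells and 104 and 114 CPM in LPS-treated WT cells. Without LPS it had 36.5 and 36.9 CPM in KO-labelled cells and 47.4 and 30.6 CPM in WT cells, which overlapped. KO-labelled cells with LPS lay above those without (log2 fold change 1.21, SE 0.207, adjusted p = 0.0656) and below LPS-treated WT cells (log2 fold change -0.46, SE 0.202, adjusted p = 0.492). Tpbg (chr9:85842380-85847057), the surface glycoprotein 5T4, had 4.08 and 3.93 CPM in LPS-treated KO-labelled, 5.60 and 3.64 CPM in LPS-treated WT, 1.08 and 0.864 CPM in unstimulated KO-labelled and 1.13 and 1.43 CPM in unstimulated WT cells. Its LPS difference under the knockout label was among the widest of the set (log2 fold change 2.11, SE 0.340, adjusted p = 0.0612), and it overlaps LOC115487186.

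Kirrel (chr3:87078593-87174777), an adhesion protein of the nephrin family, had 6.73 and 6.43 CPM in LPS-treated KO-labelled, 7.29 and 13.2 CPM in LPS-treated WT, 3.88 and 3.76 CPM in unstimulated KO-labelled and 3.55 and 2.92 CPM in unstimulated WT cells. The LPS-treated WT libraries differed widely from each other, and the difference between labels (log2 fold change -0.66, SE 0.284, adjusted p = 0.486) was -0.17 on the log2 scale without LPS-treated WT replicate 2. Tns2 (chr15:102098475-102116401), tensin 2 of focal adhesions, had 10.8 and 11.02 CPM in LPS-treated KO-labelled, 9.70 and 10.9 CPM in LPS-treated WT, 7.23 and 7.57 CPM in unstimulated KO-labelled and 5.81 and 6.39 CPM in unstimulated WT cells. Both labels reached about the same level with LPS (log2 fold change 0.06, SE 0.160, adjusted p = 0.923).

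Amn and Csn2 were the members with the lowest LPS-treated WT means in CPM and the most negative log2 fold changes between the labels with LPS. Amn (chr12:111271096-111276426), amnionless, anchors the vitamin B12 receptor cubilin, and it overlaps Gm51960. It had 0.748 and 1.37 CPM in LPS-treated KO-labelled, 2.07 and 2.94 CPM in LPS-treated WT, 1.51 and 1.27 CPM in unstimulated KO-labelled and 1.36 and 1.24 CPM in unstimulated WT cells. It was the only member with a negative difference between LPS-treated and unstimulated KO-labelled cells (log2 fold change -0.32, SE 0.422, adjusted p = 0.696), which turned to 0.07 without LPS-treated KO-labelled replicate 1. Csn2 (chr5:87692619-87699429) rested on 13 and 22 counts in LPS-treated KO-labelled, 37 and 68 in LPS-treated WT, 2 and 4 in unstimulated KO-labelled and 11 and 12 in unstimulated WT libraries. This came to 0.748 and 1.31 CPM in LPS-treated KO-labelled, 2.07 and 3.92 CPM in LPS-treated WT, 0.108 and 0.203 CPM in unstimulated KO-labelled and 0.652 and 0.744 CPM in unstimulated WT cells. The groups did not overlap, the unstimulated KO-labelled over WT ratio of 0.223 was the lowest of the set, and neither contrast passed the test (log2 fold change 2.74, SE 0.650, adjusted p = 0.0920 for LPS under the knockout label, and log2 fold change -1.56, SE 0.470, adjusted p = 0.368 between labels with LPS). The related milk-protein gene Csn1s1 had a mean of 0.0298 CPM in LPS-treated KO-labelled cells and 0 CPM in the other BMDC groups.

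The last group of named members holds a channel subunit, cytoskeletal proteins and a chaperone. Cacnb4 (chr2:52428320-52676609) encodes a beta subunit of voltage-gated calcium channels. It had 11.6 and 9.47 CPM in LPS-treated KO-labelled cells, 5.72 and 5.48 CPM in LPS-treated WT cells, 3.02 and 1.83 CPM in unstimulated KO-labelled cells and 2.19 and 1.98 CPM in unstimulated WT cells. LPS-treated KO-labelled cells stood above all other groups, with log2 fold change 2.19, SE 0.279, adjusted p = 0.0502 against unstimulated KO-labelled cells and log2 fold change 0.89, SE 0.262, adjusted p = 0.358 against LPS-treated WT cells. Its locus overlaps A430018G15Rik and Bloc1s2-ps.

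Cryaa (chr17:31677931-31681730), alpha-A crystallin, is a small heat-shock protein of the lens. It had 6.50 and 5.30 CPM in LPS-treated KO-labelled, 4.48 and 3.58 CPM in LPS-treated WT, 1.67 and 1.42 CPM in unstimulated KO-labelled and 1.66 and 0.992 CPM in unstimulated WT cells. Both LPS-treated groups stood above both unstimulated groups (log2 fold change 2.00, SE 0.320, adjusted p = 0.0612 under the knockout label). Because the extraction text names retinas, 24 lens and retina markers, Cryaa among them, were summed after the data were seen. They came to 4.15 to 11.6 CPM in BMDC libraries with at least 11 of 24 at 0 in each. Cryaa itself made up 6.50 of 11.6 CPM and 5.30 of 9.95 CPM in the LPS-treated KO-labelled libraries, so the sum is no separate measure. The part of such RNA in the Cryaa values was not tested.

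Eml6 (chr11:29743044-30026045), of the EMAP-like family of microtubule-associated proteins, had 40.7 and 43.9 CPM in LPS-treated KO-labelled, 41.5 and 42.6 CPM in LPS-treated WT, 30.7 and 26.7 CPM in unstimulated KO-labelled and 26.7 and 23.3 CPM in unstimulated WT cells. The labels overlapped with LPS (log2 fold change -0.02, SE 0.126, adjusted p = 0.976), and it overlaps other genes, Rtn4 among them. Apc2 (chr10:80295956-80318257), a relative of the tumor suppressor Apc, had 2.70 and 3.57 CPM in LPS-treated KO-labelled, 3.36 and 3.81 CPM in LPS-treated WT, 2.00 and 1.57 CPM in unstimulated KO-labelled and 1.60 and 1.80 CPM in unstimulated WT cells. Here too the labels overlapped with LPS (log2 fold change -0.21, SE 0.291, adjusted p = 0.823). Cfap58 (chr19:47937712-48035379), a protein of cilia and flagella, had 2.99 and 1.97 CPM in LPS-treated KO-labelled, 3.42 and 3.12 CPM in LPS-treated WT, 0.755 and 0.914 CPM in unstimulated KO-labelled and 1.90 and 0.868 CPM in unstimulated WT cells (log2 fold change 1.64, SE 0.442, adjusted p = 0.104 for LPS under the knockout label). The unstimulated WT libraries differed from each other more than the KO-labelled ones did.

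Provisional names are carried by 3 members. The long non-coding RNA Gm16685, which overlaps Il7, had 15.8 and 19.4 CPM in LPS-treated KO-labelled, 18.1 and 18.2 CPM in LPS-treated WT, 12.7 and 11.3 CPM in unstimulated KO-labelled and 10.3 and 9.37 CPM in unstimulated WT cells. Il7 itself averaged 3.19 ± 0.1204 CPM in LPS-treated KO-labelled, 3.55 ± 0.691 CPM in LPS-treated WT, 2.47 ± 0.524 CPM in unstimulated KO-labelled and 3.01 ± 1.02 CPM in unstimulated WT cells (SD, n = 2 each). Its LPS-treated over unstimulated WT ratio was 1.18, against 1.85 for Gm16685. Gm8773 and the long non-coding RNA 1810064F22Rik were lower in LPS-treated KO-labelled than in LPS-treated WT libraries without overlap. Gm8773 had 4.37 and 4.29 CPM against 6.45 and 5.65 CPM, and 1810064F22Rik had 3.62 and 2.98 CPM against 5.997 and 5.42 CPM. Without LPS, Gm8773 had 2.54 and 3.30 CPM in KO-labelled and 2.13 and 2.73 CPM in WT cells, and 1810064F22Rik 3.07 and 2.59 CPM in KO-labelled and 3.49 and 1.86 CPM in WT cells.

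In the 39 pathway and marker lists, 205 genes were LPS-induced by the rule. Of these 205, 4 were members (1.95%), namely Psmb10, Ido1, Dusp5 and Spic, near the 2.5% over all LPS-induced genes, and 17 members were in no list. The list of 46 type I interferon-stimulated genes held 42 LPS-induced genes and 0 members, and their unstimulated KO-labelled over WT ratio had a median of 4.23 with a lowest value of 1.502. Interferon-inducible GTPases held 16 and 0, with a median of 4.43. NF-kB subunits and feedback inhibitors held 11 and 0, with a median of 1.70, and MHC class I genes 11 and 0, with a median of 1.497. Of 8 LPS-induced immunometabolic enzymes, Ido1 had the lowest ratio at 1.00, while Acod1, which makes itaconate, had 5.70 and Nos2, the inducible nitric oxide synthase, 265. These counts describe what the rule selected and were not tested.

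In tumoral DCs, a separate table that the rule did not use, edgeR's test on all 4 libraries called no member between stages. Of the 21 members, 13 passed the filter on low counts there. Tpbg, Scube3, Ido1, Gm8773, Gm16685, Csn2, Cfap58 and 1810064F22Rik did not, so the 13 do not stand for all members. Among the 13, late libraries lay below early ones without overlap in 6 (background 28.4% of 13040 genes), above in 1 (background 13.7%) and overlapped in 6. The median log2 fold change was -0.35 in these 13, -0.20 in 780 other LPS-induced genes and 0.0117 in all tested genes. The edgeR test called 3 genes lower in late DCs (0.023%) and 0 higher (0), with 0 members. Unadjusted p was under 0.05 in 2 members lower (Icos and Psme2b) and 1 higher (Cryaa), against 7.12% and 3.91% of all genes. Of the 780 other LPS-induced genes, 92 were lower and 13 higher at that p. DESeq2 called 1 member lower, Icos, against 1.84% of its 12534 genes, and 0 higher, against 0.638%. Without early replicate 1, edgeR called Icos, Psme2b and Dusp5 lower (5.84% of all genes tested), and without early replicate 2 it called Icos lower (2.24%) and Dusp5 higher (1.99%). In these fits the lone early library is assumed to vary like the late ones.

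Icos had 7.07 and 1.55 CPM in late tumoral DCs and 27.8 and 31.0 CPM in early tumoral DCs (ratio of late to early means 0.147; log2 fold change -2.69, SE 0.625, adjusted p = 0.247). The 20 lymphocyte and NK markers summed to 399 and 184 CPM in late and 2107 and 1310 CPM in early libraries, and Cd3e had 149 and 51 counts in late and 1252 and 446 in early libraries. Fewer cells of a type and less RNA per cell cannot be told apart in bulk samples, and the part of lymphocytes in the Icos values was not tested. Psme2b had 1.39 and 0.565 CPM in late and 2.85 and 4.59 CPM in early DCs (log2 fold change -1.84, SE 0.671, adjusted p = 0.389), and Psmb10 154 and 177 CPM in late and 248 and 182 CPM in early DCs (log2 fold change -0.25, SE 0.229, adjusted p = 0.707). Both antigen-processing members were lower in each late library than in each early one (background 28.4% of tested genes), in Psmb10 by a narrow margin. The gene that Psme2b overlaps, 9930111J21Rik1, also had a negative log2 fold change, of similar size to that of Psme2b, and did not pass the test either. Reads of these overlapping genes may be shared, so the lower Psme2b values cannot be assigned to Psme2b alone. The part of 9930111J21Rik1 in them was not tested. The median log2 fold change was 0.0968 over 38 proteasome and immunoproteasome genes and -0.258 over 18 genes of MHC class I and antigen processing. In both lists 0 genes were called.

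Zfpm1 had 13.8 and 12.3 CPM in late and 23.2 and 19.4 CPM in early DCs (log2 fold change -0.60, SE 0.263, adjusted p = 0.455), and Tns2 4.23 and 1.84 CPM in late and 9.23 and 4.82 CPM in early DCs. Spic overlapped between stages with 13.8 and 10.4 CPM in late and 7.05 and 10.5 CPM in early DCs. Dusp5 had 292 and 239.8 CPM in late and 162 and 535 CPM in early DCs, and the early libraries lay on both sides of the late ones (log2 fold change -0.35, SE 0.615, adjusted p = 0.865). Its value was decided by 1 library, at -1.003 without early replicate 1 and 0.92 without early replicate 2, with adjusted p = 0.00803 and 0.0407. Cryaa, at 0.694 and 0.777 CPM in late and 0.0518 and 0.174 CPM in early DCs (log2 fold change 2.74, SE 1.14, adjusted p = 0.438), was the single tested member above in late cells, near the level of a few counts. Ido1 was below 1 CPM in each library, with 0.316 and 0.212 CPM in late and 0.622 and 0.116 CPM in early DCs, and Csn2 had 0 counts in all 4 tumoral libraries, which allows up to 0.155 to 0.212 CPM for counting error only.

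**Figure D4:**
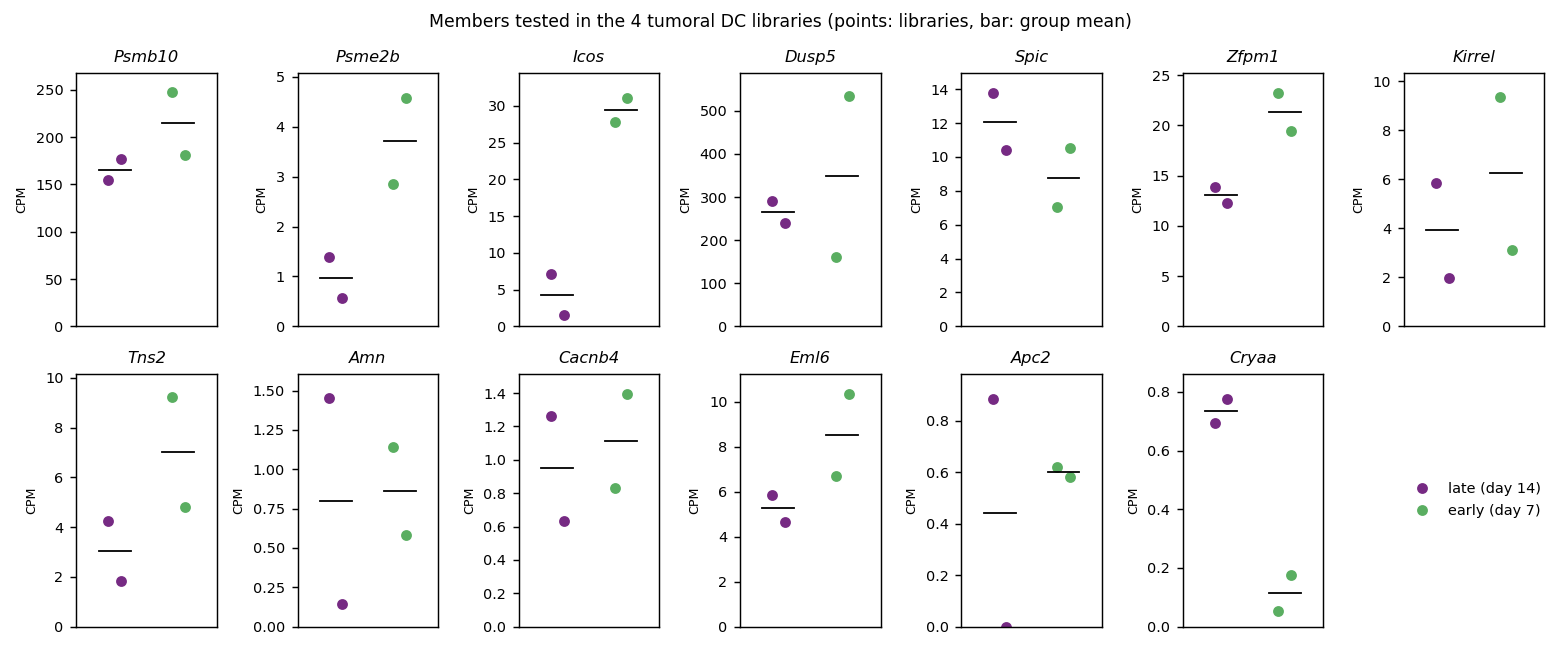
CPM of the 13 members tested in tumoral DCs, late (day 14) left of early (day 7), 1 panel a gene with its own axis from 0; points are libraries and bars are group means (n = 2). Icos, Psme2b, Psmb10, Zfpm1, Tns2 and Eml6 are lower in both late libraries than in both early ones, and Cryaa is higher.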

How the data were processed

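Per the labels' protocols, an Illumina TruSeq kit was used on total RNA. The authors deposited raw counts per gene symbol in 1 table for 8 BMDC and 1 for 4 tumoral libraries. Per the submitters' processing notes, fastp 0.12.4, HISAT2 2.2.1, featureCounts 2.0.1 and mm10 were used, while annotation, strand setting and multi-mapping treatment were not given in the sources used here. Overlapping genes may therefore share reads. Of 32190 symbols, 31837 matched the RefSeq table of GRCm38.p6, which gave positions.

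Members were found by the CPM rule given at the start. Tests used edgeR 4.0.16 in R 4.3.3 on each whole table, with filterByExpr (minimum count 10), TMM scaling, robust glmQLFit, glmQLFTest and Benjamini-Hochberg adjustment over all genes tested, called under 0.05. All 8 BMDC libraries entered 1 fit and the 4 tumoral libraries another, with biological coefficients of variation of 0.138 and 0.278. The SE is the size of the log2 fold change divided by the root of F. DESeq2 1.42.0, other scalings and filters, a replicate block and leaving out each library were the alternatives. The tests were tried on simulated counts, where 100 better-expressed genes were changed by 1 on the log2 scale. Late over early DCs recovered 27 of these, LPS under the knockout label 77 and labels under LPS 79. Of the calls, 15.1%, 7.85% and 8.25% were false, so changes of that size can be missed between tumor stages. Replicates were not identical. Columns of no mapped sample numbered 0. The members, the gene lists and the rule for named genes, which takes members by LPS response, level, ratio and smallest p, were chosen with earlier results of these data known, and all 21 members are described. Intervals and limits for a count of 0 cover counting error only.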

Additional observations from a re-analysis of the deposited data

Results flagged for a closer look

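In 3 members the libraries labelled Pde5 knockout lay on opposite sides of the WT libraries with and without LPS, without overlap in either state. KO-labelled libraries were lower with LPS and higher without in the 3 (14.3% of 21 members), against 17.5% of the 819 other LPS-induced genes and 3.71% of the 13072 genes tested. The opposite pattern was found in 0 members, in 0 of the 819 other LPS-induced genes and in 6.66% of the genes tested. In those 819 the rule's limit on the knockout ratio leaves no room for it. As log2 ratios of mean CPM, KO-labelled over WT, Psmb10 stood at -0.26 with LPS and 0.26 without, Zfpm1 at -0.38 with LPS and 0.25 without, and Kirrel at -0.64 with LPS and 0.24 without. The difference between the states was not tested. The rule that chose the members used the LPS-treated WT and both sets of unstimulated libraries, which bears on both directions.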

How the results depend on the processing

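The set itself depended on its limits. The 21 members became 34 with TMM-scaled library sizes (11 shared with the 21), 10 at a knockout ratio of at most 1.1, 112 at 1.5, 7 at an LPS ratio of at least 2 and 8 at a minimum of 10 CPM. Leaving out 1 library at a time gave 18 to 65 members, with 65 without LPS-treated WT replicate 2, 49 without unstimulated KO-labelled replicate 1, 44 without unstimulated WT replicate 2, 43 without unstimulated WT replicate 1 and 35 without LPS-treated WT replicate 1.

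Members called higher in LPS-treated than in unstimulated KO-labelled cells were 0 in edgeR, 2 with DESeq2 size factors, 10 with no filter on low counts and 10 with DESeq2. Leaving out 1 library gave 0 to 6. The labels do not say that replicate numbers pair the libraries. Deviations of same-numbered libraries correlated at -0.200 to 0.275 between BMDC groups, over 0.1 in 3 of 6 pairs of groups, and at -0.0379 between tumoral groups, so the numbers were not taken as a pairing. With the replicate block, 10 members were higher in LPS-treated than in unstimulated KO-labelled cells (1.12% of all genes), and 0 members were called elsewhere. Between labels under LPS, 0 members were called under every alternative run. Late tumoral DCs had 1 member lower with no filter on low counts and 1 with DESeq2. Leaving out 1 library gave 0 to 3 lower and 0 to 1 higher.

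Directions of single genes turned only when a library was left out. Over these fits, log2 fold changes between labels under LPS ran from -0.51 to 0.12 in Tpbg, -0.0212 to 0.14 in Tns2, -0.35 to 0.24 in Psme2b, -0.0797 to 0.0312 in Dusp5, -0.23 to 0.0774 in Gm16685 and -0.0844 to 0.0468 in Eml6. For LPS under the knockout label, Amn ran from -0.82 to 0.0655. In late over early DCs, Kirrel ran from -1.48 to 0.32, Amn from -2.40 to 0.83, Dusp5 from -1.003 to 0.92, Cacnb4 from -0.69 to 0.39 and Apc2 from -6.33 to 0.61. The causes were not tested. Depth limits the lowest members: Csn2 rested on 2 to 68 counts a BMDC library.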
